A study of Rattus norvegicus with 9 samples.

Results

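The genes described here handle glucocorticoids and other steroids in the liver: the plasma carrier Serpina6, the receptor Nr3c1, its chaperone Fkbp5, the enzymes Hsd11b1, Hsd17b2, Srd5a1 and Akr1d1, and the receptor targets Tsc22d3 and Sgk1. They were chosen by gene symbol, taking every probe set annotated to one of the 9 symbols. Of the 15923 probe sets on the array, 9 belonged to 8 of these genes, and all 9 passed the filter on dim signals. Srd5a1 is named only.

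RNA of whole rat liver was measured in 3 groups of 3 arrays, labelled Burn-CLP, Sham-CLP and Sham-Sham. Burn-CLP names a burn and CLP, Sham-CLP a sham procedure and CLP, and Sham-Sham a control with sham procedures only. CLP is not spelled out in the labels; in rodent work it usually means cecal ligation and puncture, an operation that causes abdominal infection. The labels give neither strain, sex, age, burn size nor the time of sampling, and they do not say whether the arrays of a group are separate animals, so a p-value reflects only how far these arrays spread, part of which may be technical.

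Corticosterone, the main glucocorticoid of the rat, travels in plasma bound to corticosteroid-binding globulin, which the liver makes from Serpina6. In hepatocytes it binds the glucocorticoid receptor, which leaves its chaperone complex, enters the nucleus and turns on genes of amino acid breakdown and glucose production. Hsd11b1 regenerates active hormone from its inactive keto form, reductases such as Srd5a1 and Akr1d1 begin its breakdown, and injury and infection raise the hormone in plasma.

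The receptor binds DNA as a dimer, and a fully palindromic site reads AGAACA and TGTTCT with any 3 bases between them. RefSeq promoter windows of GRCr8 were at hand for 5 of the genes (Nr3c1, Fkbp5, Srd5a1, Tsc22d3 and Sgk1), with 10 windows in all, and the 250 bases before each start were searched on both strands. The full palindrome was in none of the 10 windows and in 0.012% of all 33469 windows. Its core, ACANNNTGT, which lies inside the full palindrome, was in 1 of the 10 and in 5.81% of all. The hexamer TGTTCT alone, which overlaps the core, was in none of the 10 and in 17.5% of all. The core match is shown because it was the only match of any kind in the 10 windows. It lies in 1 of the 3 windows of Tsc22d3, the gene of the glucocorticoid-induced leucine zipper, and no window of Fkbp5 or Sgk1 held one. The 29 bases around the match lie at chrX:109065595-109065623 on the minus strand, with the core in capitals and its first base at position -183 from the start.
Tsc22d3: cgctcaggggACACCCTGTgagccagccc
Such a match is a description of the letters and not evidence of binding.

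Values are quantile-normalized array signals on a linear scale, with signals under 64.31 set to that floor for the tests. Changes are log2 differences from 1 limma fit over 13535 probe sets, with the standard error (SE) and a Benjamini-Hochberg adjusted p, and they were called under 0.05. Folds are ratios of the same fitted means. Signals of different probe sets are not compared with each other. Correlations of Sham-Sham 1 with the other 8 arrays averaged 0.8897, against 0.9217 to 0.9485 for the others. Sham-Sham 3 correlated at 0.9591 on average with the Sham-CLP arrays and at 0.9226 with the other Sham-Sham arrays. Hepatocyte markers were bright on every array: the summed signal of 7 hepatocyte markers was 166200 to 176500 in Burn-CLP, 172900 to 178000 in Sham-CLP and 169100 to 174100 in Sham-Sham.

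Among these genes the call fell on 1 probe set of 9, that of Hsd17b2, in Burn-CLP against Sham-Sham. In that comparison 0.746% of all probe sets were called, with 0.421% of all called lower and 0.325% called higher. None of the 9 was called in Sham-CLP against Sham-Sham (0.0591% of all) or in Burn-CLP against Sham-CLP (0.0148% of all). At an unadjusted limma p under 0.05 there were 4 of 9, 2 of 9 and 3 of 9 in these 3 comparisons, against 19.9%, 11.7% and 9.09% of all probe sets. The median size of the log2 change, whatever its sign, was 0.49, 0.43 and 0.47 over the 9 probe sets and 0.29, 0.24 and 0.20 over all. Burn-CLP and Sham-CLP were each compared with the same 3 Sham-Sham arrays, and values from the comparisons are given side by side only.

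**Figure D1:**
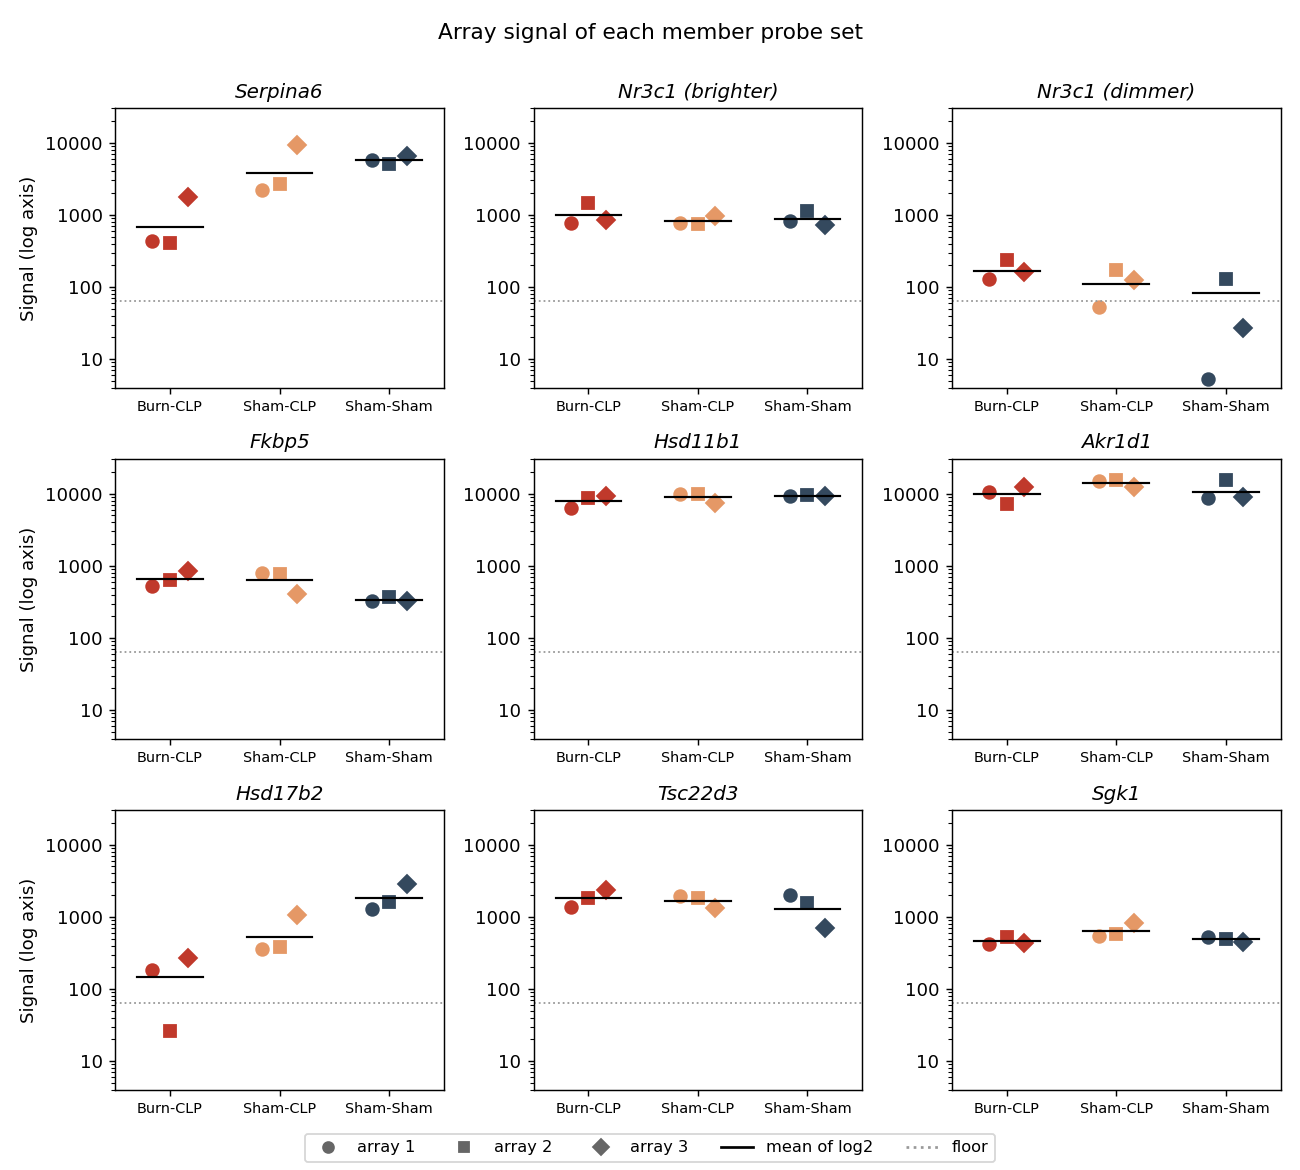
Signal of each probe set on the 9 arrays (log axis), by group, with circles, squares and diamonds for arrays 1 to 3, a black line at the mean of log2 after flooring and a dotted line at the floor of 64.31. Serpina6 and Hsd17b2 lie lower on all 3 Burn-CLP arrays than on any Sham-Sham array, and Fkbp5 lies higher. Of all probe sets, 10.5% lie lower in this way and 11% higher.

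Serpina6 encodes the carrier that holds most corticosterone in plasma. Its signal was 429.7, 410.5 and 1745 on the Burn-CLP arrays, 2232, 2686 and 9335 on the Sham-CLP arrays and 5822, 5037 and 6479 on the Sham-Sham arrays. Every Burn-CLP array was below every array of the other groups. Of all probe sets, 10.5% were lower without overlap in Burn-CLP against Sham-Sham and 9.22% against Sham-CLP. Burn-CLP 3 was the highest of its group, and Sham-CLP 3 was above all Sham-Sham arrays. The highest signal was 4.25 times the lowest in Burn-CLP and 4.18 times in Sham-CLP, but 1.29 times in Sham-Sham. The difference of Burn-CLP from Sham-Sham was -3.09 ± 0.63 on the log2 scale (SE, n = 3 per group; 95% interval -4.50 to -1.68), an 8.52-fold lower mean, and its limma adjusted p of 0.0591 did not pass.

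That Serpina6 value sat close to the threshold, and leaving out 1 array, either Burn-CLP 3 or Sham-CLP 3, brought it under. Without Burn-CLP 3 the difference was -3.78 with an adjusted p of 0.0238, and without Sham-CLP 3, which enters through the shared spread, it was -3.08 with 0.0437. Without Sham-Sham 1 it was -3.11 with an adjusted p of 0.124. Sham-CLP differed from Sham-Sham by -0.59 (95% interval -1.997 to 0.821, adjusted p = 0.723), and by -1.23 without Sham-CLP 3, -0.33 without Sham-CLP 2 or -0.20 without Sham-CLP 1. Burn-CLP differed from Sham-CLP by -2.50 (95% interval -3.91 to -1.09, adjusted p = 0.345).

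The receptor gene Nr3c1 did not pass on either of its 2 probe sets. On the one with the higher mean, the signal was 775.8, 1444 and 841.8 in Burn-CLP, 761.8, 748.5 and 950.8 in Sham-CLP and 819.7, 1141 and 725 in Sham-Sham. The 3 groups overlapped, and array 2 was the highest of its group in Burn-CLP and in Sham-Sham. The log2 difference from Sham-Sham was 0.16 in Burn-CLP (95% interval -0.45 to 0.77, adjusted p = 0.774) and -0.11 in Sham-CLP (-0.72 to 0.50, adjusted p = 0.894). The other probe set read 127.1, 233.4 and 161.5 in Burn-CLP, 52.2, 173.2 and 124 in Sham-CLP and 5.35, 129.3 and 26.7 in Sham-Sham. On it 2 Sham-Sham arrays and 1 Sham-CLP array were under the floor, and Burn-CLP differed from Sham-Sham by 1.06 ± 0.41 (adjusted p = 0.206), or by 1.87 with the floor at the 10th percentile.

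Fkbp5 encodes an immunophilin of the receptor's chaperone complex that lowers hormone binding and is itself a receptor target. Its signal was 524.3, 645.6 and 860.3 in Burn-CLP, 793.4, 781.2 and 406.8 in Sham-CLP and 329.5, 366 and 328.1 in Sham-Sham. All 6 arrays with CLP were above all 3 Sham-Sham arrays, and Sham-CLP 3 was the lowest of the 6. The difference from Sham-Sham was 0.96 ± 0.28 in Burn-CLP (SE, n = 3 per group; 1.95-fold, adjusted p = 0.133) and 0.89 ± 0.28 in Sham-CLP (1.85-fold, adjusted p = 0.328), so neither passed in limma. Burn-CLP and Sham-CLP overlapped and differed by 0.07 (95% interval -0.57 to 0.71, adjusted p = 0.969). Of all probe sets, 21.5% had groups without overlap in Burn-CLP against Sham-Sham (11% higher, 10.5% lower), and 16.7% in Sham-CLP against Sham-Sham (8.1% higher, 8.65% lower).

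Hsd11b1 encodes the reductase that turns 11-dehydrocorticosterone back into corticosterone in liver. Its signal was 6299, 8760 and 9377 in Burn-CLP, 10030, 9939 and 7398 in Sham-CLP and 9246, 9682 and 9298 in Sham-Sham. The groups overlapped, and the Sham-Sham arrays lay within 1.05 times of each other. Burn-CLP differed from Sham-Sham by -0.23 (95% interval -0.69 to 0.23, adjusted p = 0.55) and Sham-CLP by -0.06 (-0.52 to 0.40, adjusted p = 0.927), or by 0.12 with the deposited scaling.

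Akr1d1 encodes the 5-beta reductase that opens the breakdown of glucocorticoids and also acts in bile acid synthesis. Its signal was 10570, 7308 and 12560 in Burn-CLP, 15080, 15510 and 12450 in Sham-CLP and 8789, 15280 and 8883 in Sham-Sham. Sham-CLP 1 and Sham-CLP 2 were near the top with Sham-Sham 2, Burn-CLP 3 was above Sham-CLP 3, and the groups overlapped. Burn-CLP differed from Sham-Sham by -0.10 (95% interval -0.71 to 0.51, adjusted p = 0.87), Sham-CLP from Sham-Sham by 0.43 (-0.18 to 1.04, adjusted p = 0.556) and Burn-CLP from Sham-CLP by -0.53 (-1.14 to 0.09, adjusted p = 0.604).

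Hsd17b2 encodes an oxidative dehydrogenase that inactivates estradiol and testosterone to their keto forms. Its signal was 184.7, 26.5 and 270.5 in Burn-CLP, 362.7, 383.7 and 1069 in Sham-CLP and 1270, 1603 and 2879 in Sham-Sham. Every Burn-CLP array was below every Sham-CLP array, and every Sham-CLP array was below every Sham-Sham array. Burn-CLP 2 lay under the floor and entered the test at it. In Burn-CLP the gene fell 12.2-fold against Sham-Sham (-3.61 ± 0.58, SE, n = 3 per group; 95% interval -4.92 to -2.31, adjusted p = 0.0351). The mean signal was 160.6 ± 124 in Burn-CLP and 1917 ± 849 in Sham-Sham (SD, n = 3 each).

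For Hsd17b2 the other comparisons did not pass. Sham-CLP differed from Sham-Sham by -1.77 ± 0.58 (3.40-fold lower, adjusted p = 0.333) and Burn-CLP from Sham-CLP by -1.84 ± 0.58 (3.59-fold lower, adjusted p = 0.408), with no overlap between groups in either. It was the 1 probe set of the 9 that was ordered without overlap over the 3 groups, lowest in Burn-CLP and highest in Sham-Sham, an order found in 0.813% of all probe sets. The call in Burn-CLP against Sham-Sham was lost in 10 of 16 alternatives, among them the floor at the 10th percentile (adjusted p = 0.0823) and those without Burn-CLP 1 (adjusted p = 0.0915), Burn-CLP 2 (0.105), Sham-CLP 1 (0.0586), Sham-CLP 2 (0.0584), Sham-Sham 1 (0.0693) or Sham-Sham 2 (0.0854), while the log2 change stayed between -4.06 and -3.02.

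**Figure D2:**
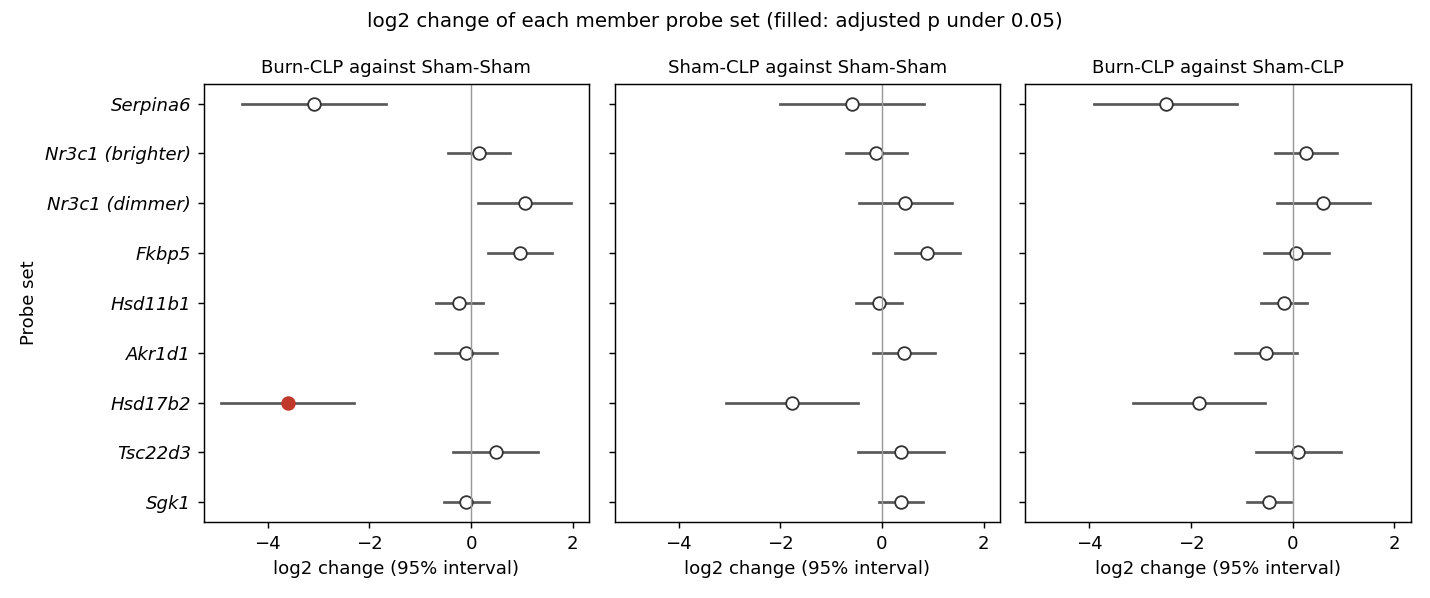
The log2 change (points) with its 95% interval (bars) for each probe set in the 3 comparisons, filled where the adjusted p was under 0.05. The 1 filled point is Hsd17b2 in Burn-CLP against Sham-Sham, at -3.61, and Serpina6 lies at -3.09 in the same panel.

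Tsc22d3 and Sgk1 are both induced through the receptor in many tissues, Tsc22d3 encoding the glucocorticoid-induced leucine zipper and Sgk1 a kinase that regulates ion transport. The Tsc22d3 signal was 1369, 1825 and 2361 in Burn-CLP, 1922, 1833 and 1332 in Sham-CLP and 1993, 1555 and 694.9 in Sham-Sham. The groups overlapped, and Sham-Sham 3 was the lowest of the 9 arrays. Burn-CLP differed from Sham-Sham by 0.48 (95% interval -0.36 to 1.32, adjusted p = 0.489), and by 0.04 without Sham-Sham 3. Sham-CLP differed from Sham-Sham by 0.37 (-0.47 to 1.22, adjusted p = 0.701).

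The Sgk1 signal was 424.1, 517.3 and 439.4 in Burn-CLP, 550.3, 570.4 and 815.3 in Sham-CLP and 521.3, 497.2 and 449.9 in Sham-Sham. The Sham-CLP arrays were above all other arrays, while Burn-CLP and Sham-Sham overlapped. Burn-CLP differed from Sham-CLP by -0.47 ± 0.20 (adjusted p = 0.521), Sham-CLP from Sham-Sham by 0.38 ± 0.20 (adjusted p = 0.477) and Burn-CLP from Sham-Sham by -0.09 (95% interval -0.53 to 0.35, adjusted p = 0.823). None of these 3 values passed. Burn-CLP and Sham-CLP were without overlap for 18.8% of all probe sets, 9.61% higher and 9.22% lower in Burn-CLP.

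Over the 9 arrays the log2 signals of Serpina6 and Hsd17b2 had a Pearson correlation of 0.91, and Hsd17b2 ranked 98th of 9338 genes by its correlation with Serpina6. The 9 points share the group structure and the normalization, so this describes these arrays. Within each of the 3 groups, array 3 was the highest for both genes. The genes with the patterns most like Hsd17b2 were Ldha (r = 0.989), Kctd2 (0.984), Acadl (0.978) and Cyp2t1 (0.977). Those most like Serpina6 were Psmb8 (r = 0.983), Hmgb3 (0.979), Atrn (0.975) and Igfals (0.975, with 2 arrays at the floor). Those most like Fkbp5 were Hacd3 (r = 0.977), Cyp27a1 (0.927), Kcne3 (0.926, with 4 arrays at the floor) and Cdo1 (0.922). Fkbp5 itself had a correlation of -0.75 with Hsd17b2 and of 0.62 with Tsc22d3.

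**Figure D3:**
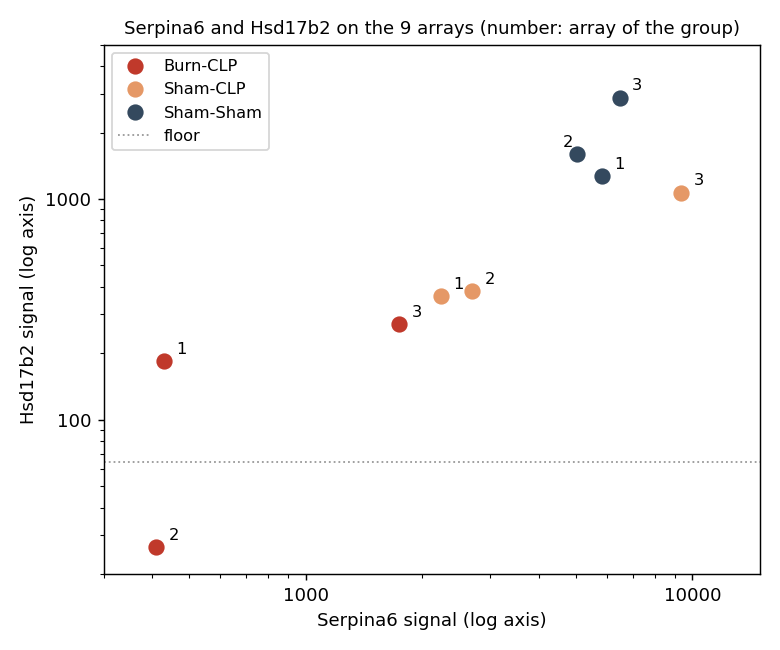
Signals of Serpina6 and Hsd17b2 on the 9 arrays (both axes log), coloured by group and numbered by array, with a dotted line at the floor. The 3 Burn-CLP arrays lie lowest on both axes, and Sham-CLP 3 lies apart from the other Sham-CLP arrays on both.

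A list of 30 genes known to be induced by glucocorticoids, most of them in liver, was read beside these genes. Neither the hormone nor the activity of its receptor was measured, and what moved the genes of this list was not tested. Of the 28 that were tested, 3 rose in Burn-CLP against Sham-Sham, none fell and 25 did not pass, and 0.325% of all probe sets rose in that comparison. Their median log2 change was 0.74, against 0.00 over all 9339 genes tested, and 24 of 28 were positive. The list was chosen with earlier results of these data known, so its counts and medians are a description and not independent support. In 14 of them every Burn-CLP array was above every Sham-Sham array and in 2 every one was below, against 11% and 10.5% of all probe sets. In Sham-CLP against Sham-Sham none of the 28 was called in limma, against 0.0591% of all probe sets, and 7 had an unadjusted p under 0.05, against 11.7% of all, with a median of 0.22. In Burn-CLP against Sham-CLP none was called, against 0.0148% of all probe sets, and 9 had an unadjusted p under 0.05, against 9.09% of all, with a median of 0.48.

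Got1, the cytosolic aspartate aminotransferase, had a signal of 16400, 17580 and 14330 in Burn-CLP, 8883, 10030 and 6277 in Sham-CLP and 2963, 3702 and 2936 in Sham-Sham. The 3 groups did not overlap and were ordered from Burn-CLP at the top to Sham-Sham at the bottom, as were those of 0.731% of all probe sets. Got1 rose 5.04-fold in Burn-CLP against Sham-Sham (2.33 ± 0.21, SE, n = 3 per group; adjusted p = 0.00254), and Sham-CLP differed from Sham-Sham by 1.37 ± 0.21 (adjusted p = 0.0779). Lpin1, a phosphatidate phosphatase that also acts as a coactivator of fasting genes, read 6147, 8536 and 3395 in Burn-CLP, 2667, 2253 and 1200 in Sham-CLP and 949.3, 865.4 and 905.1 in Sham-Sham. It showed the same order without overlap, and it rose by 2.63 ± 0.37 in Burn-CLP against Sham-Sham (adjusted p = 0.0221). Sds, the serine dehydratase of gluconeogenesis, read 12560, 17810 and 10510 in Burn-CLP, 4309, 4197 and 3033 in Sham-CLP and 2538, 3476 and 819.5 in Sham-Sham. It rose by 2.78 ± 0.47 in Burn-CLP against Sham-Sham (adjusted p = 0.0372), with Sham-CLP and Sham-Sham overlapping. The call of Got1 was kept in all 17 alternatives, that of Lpin1 was lost in 6 of 17 and that of Sds in 10 of 17. Both were lost without Burn-CLP 1, Burn-CLP 2 or Sham-Sham 1, which left 1 called gene in the list, Lpin1 also without Sham-Sham 2, and Sds also without any 1 of the Sham-CLP arrays.

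Further genes of this list were picked after their values were seen, among them its highest value, Ddit4, and its lowest, Angptl4, so they do not represent the list. In Burn-CLP against Sham-Sham the tyrosine aminotransferase gene Tat differed by 1.66 (adjusted p = 0.145) and the tryptophan dioxygenase gene Tdo2 by 0.83 (adjusted p = 0.0631). The clock gene Per1 differed by 1.77 (adjusted p = 0.133) and the transcription factor gene Klf9 by 0.91 (adjusted p = 0.157). Igfbp1, which encodes an insulin-like growth factor binding protein, differed by 1.31 (adjusted p = 0.143), and the mTOR inhibitor gene Ddit4 by 2.90 (adjusted p = 0.102) with 1 Sham-Sham array under the floor. The targets did not all lie on 1 side: Pck1, the key enzyme gene of gluconeogenesis, differed by -0.05, the metallothionein gene Mt1 by -0.39 and the lipoprotein lipase inhibitor gene Angptl4 by -1.33 (adjusted p = 0.0715). None of these 9 genes passed. The other metallothionein gene of the list, Mt2A, differed by 0.71 (adjusted p = 0.128) and Pdk4 by -0.09, and neither passed.

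**Figure D4:**
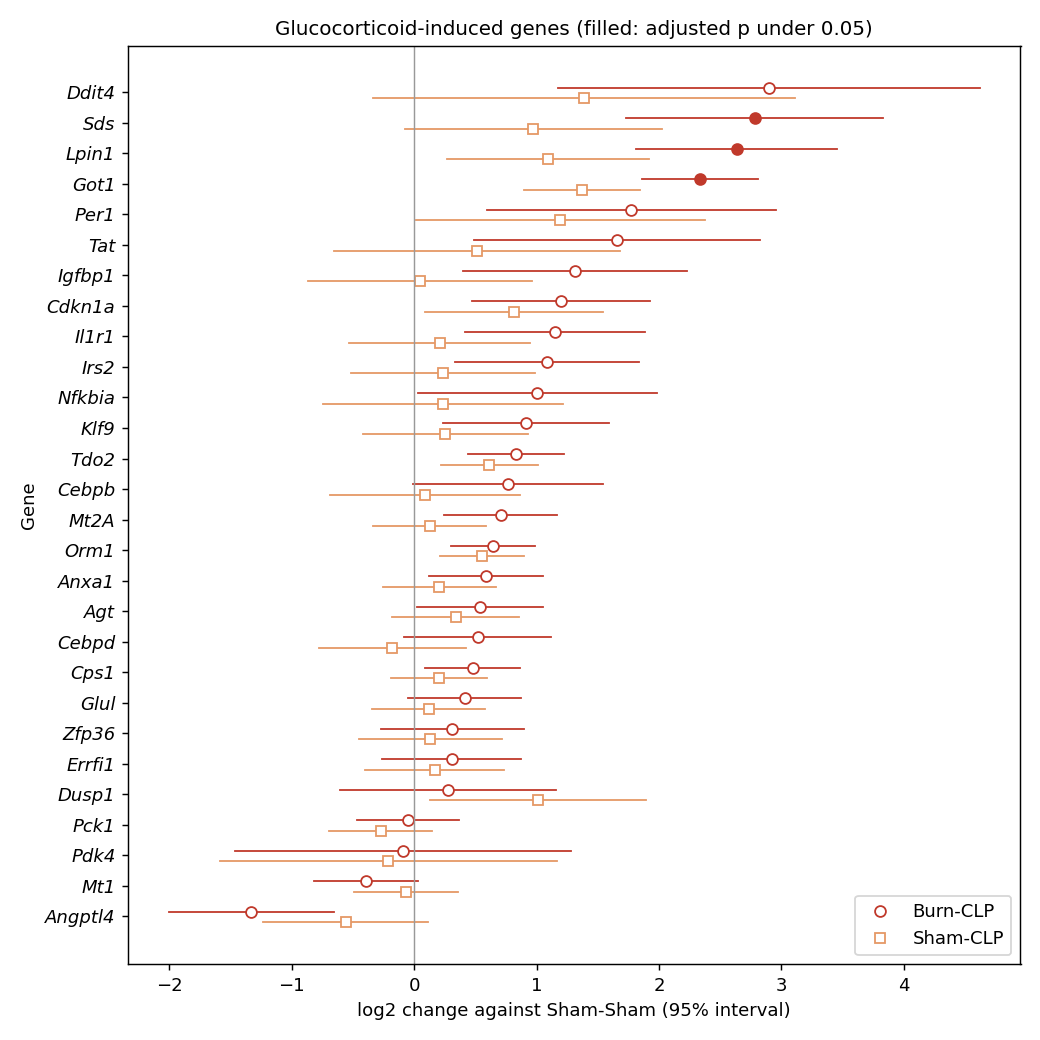
The log2 change against Sham-Sham with its 95% interval for the 28 tested glucocorticoid-induced genes, Burn-CLP as circles and Sham-CLP as squares, filled where the adjusted p was under 0.05. Filled circles mark Sds, Lpin1 and Got1, and 24 of the 28 circles lie above 0.

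The receptor's chaperones and cofactors gave no called gene in Burn-CLP against Sham-Sham (0 of 17 tested of 21 listed, limma), against 0.746% of all probe sets. Their median was -0.05, and 6 of the 17 had an unadjusted p under 0.05, against 19.9% of all probe sets. The smallest p-values were those of the acetyltransferase gene Crebbp (1.15, adjusted p = 0.126, with 1 Sham-Sham array under the floor), the heat shock protein gene Hspa4 (-0.71, adjusted p = 0.139), the immunophilin gene Fkbp4 (-0.85, adjusted p = 0.2) and the chromatin remodeller gene Smarca4 (-0.46, adjusted p = 0.22). The other Crebbp probe set was too dim to be tested. It averaged 62.77 in Burn-CLP and 55.42 in Sham-Sham, with 2 arrays of each group under the floor. The other 2 tested Smarca4 probe sets differed by 0.19 and 0.14. Hsp90ab1, which encodes a form of the main chaperone and was picked after its value was seen, differed by 0.15.

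Other steroid-metabolising enzymes gave no called gene either (0 of 32 tested of 41 listed, limma), against 0.746% of all probe sets. Their median was 0.00, and 11 of the 32 had an unadjusted p under 0.05, against 19.9% of all. Cyp2c11, the male-specific steroid hydroxylase of rat liver, read 811.4, 367.2 and 2990 in Burn-CLP, 4857, 5364 and 2957 in Sham-CLP and 14640, 5874 and 13050 in Sham-Sham. Burn-CLP and Sham-Sham did not overlap, as for 21.5% of all probe sets, and the difference of -3.43 ± 0.67 had an adjusted p of 0.0538. Cyp3a9, another cytochrome P450 that acts on steroids, differed by 2.65 (adjusted p = 0.0604), Hsd17b6 by 0.85 (adjusted p = 0.0791) and Hsd17b1, which makes estradiol, by -1.10 (adjusted p = 0.0693) with 2 Burn-CLP arrays under the floor. Hsd17b1 was ordered over the 3 groups without overlap in the same sense as Hsd17b2, an order found in 0.813% of all probe sets. That order was narrow, with 126.1 on Sham-CLP 3 and 127.4 on Sham-Sham 3. Probes of such families can bind transcripts of related members, which was not tested. H6pd, which supplies Hsd11b1 with its cofactor and was picked after its value was seen, differed by 0.81 (adjusted p = 0.211).

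Among other steroid receptors and carriers 0 of 12 tested genes of 14 listed were called (limma), against 0.746% of all probe sets. Their median was -0.04, and 1 of the 12 had an unadjusted p under 0.05, against 19.9% of all. The membrane progesterone receptor component gene Pgrmc2 differed by -0.97 (adjusted p = 0.0772) and by -1.21 on its other probe set. Ttr, the thyroxine and retinol carrier, differed by -0.34 (adjusted p = 0.253) and Shbg, which binds sex steroids, by 0.43 (adjusted p = 0.459). Ttr was also ordered without overlap over the 3 groups, lowest in Burn-CLP and highest in Sham-Sham. All 3 Sham-Sham arrays were under the floor for the estrogen receptor gene Esr1, which read 187.9, 89.7 and 73.7 in Burn-CLP and 70.7, 42.3 and 138 in Sham-CLP, and Burn-CLP against Sham-Sham had an adjusted p of 0.301. The mineralocorticoid receptor gene Nr3c2, picked after its value was seen, differed by 0.00 (95% interval -0.42 to 0.43).

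Whole liver holds several cell types, and for a bulk tissue fewer cells of a type and less RNA per cell cannot be told apart. The summed hepatocyte marker signals overlapped between the groups, as given above, and none of the 7 was called. The single markers differed in direction: Ttr read 18180 to 21870 in Burn-CLP and 25650 to 26550 in Sham-Sham, while Cps1 read 17810 to 22040 in Burn-CLP and 12510 to 16600 in Sham-Sham. Alb had the same signal of 35700 on 6 of the 9 arrays, so it adds little to a comparison of the sums. Quantile normalization gives probe sets of equal rank the same signal on every array. This limits how far a sum of such bright markers can differ, so the overlap says little about hepatocyte content. Summed macrophage markers (6 on the array of 10 listed) were 8349 to 11710 in Burn-CLP, 7105 to 8743 in Sham-CLP and 6997 to 7624 in Sham-Sham. Summed neutrophil markers (6 on the array of 10 listed) were 910.9 to 1897 in Burn-CLP, 664.5 to 1034 in Sham-CLP and 643.6 to 822 in Sham-Sham, and S100a9 rose by 2.80 (log2) in Burn-CLP against Sham-Sham, where 2 of 3 Sham-Sham arrays were under the floor. Cybb was also higher without overlap in that comparison, but S100a8, Cxcr2, Ncf1 and Itgam overlapped, Itgam with 8 arrays under the floor. The macrophage and neutrophil sums were both higher on all 3 Burn-CLP arrays than on any Sham-Sham array, and their part in the results above was not tested. Cd14 gave the largest part of the macrophage sum on every array, and each of the 6 macrophage markers alone overlapped between Burn-CLP and Sham-Sham.

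Stellate cell and fibroblast markers (all 8 on the array) summed to 4911 to 6389 in Burn-CLP, 4719 to 6699 in Sham-CLP and 6500 to 7122 in Sham-Sham, and Dcn rose by 1.48 (log2) in Burn-CLP against Sham-Sham. Dcn does not represent its list, whose median log2 change in that comparison was -0.222. Col1a2, Col3a1 and Acta2 were lower without overlap, as were 10.5% of all probe sets, and Col1a1, Des, Sparc and Lum overlapped. Erythroid markers (4 of 6) summed to 10030 to 12070 in Burn-CLP, 11610 to 12770 in Sham-CLP and 12890 to 16070 in Sham-Sham. Both sums were lower on the Burn-CLP arrays than on any Sham-Sham array, and their part was likewise not tested. No lymphocyte, endothelial or bile duct marker was called, and for none of these lists were the Burn-CLP sums all below those of Sham-Sham or all above them. Lymphocyte markers (11 of 12) summed to 1821 to 2108 in Burn-CLP, 1680 to 1709 in Sham-CLP and 1793 to 2549 in Sham-Sham. Endothelial markers (5 of 8) summed to 2526 to 3726 in Burn-CLP, 2438 to 3514 in Sham-CLP and 3151 to 3625 in Sham-Sham. Bile duct markers (4 of 6) summed to 1183 to 1762 in Burn-CLP, 1136 to 1253 in Sham-CLP and 1146 to 1261 in Sham-Sham. Markers of the adrenal cortex, which makes the hormone, held no called gene, and their sum over 4 probe sets was 301.4 to 396.3 in Burn-CLP, 251.2 to 412.5 in Sham-CLP and 192.5 to 386 in Sham-Sham. No marker on the array, in any of the 9 lists, was under the floor on all 9 arrays, but several were near it. The adrenal probe sets were under the floor on 4 (Cyp11b1), 3 (Cyp21a1), 3 (Star) and 2 (Cyp11a1) arrays. Among the lymphocyte markers Cd8a was under it on 7 arrays, and Cd3d, Cd2 and Cd79b on 6 each. Sums of such markers hold much signal close to the floor.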

How the data were processed

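RNA was hybridised to 9 one-colour oligonucleotide arrays, 3 per group. The deposited intensity values are linear and cover 15923 probe sets. The steps from image to value are not stated in the sources used here. Each array's mean, trimmed by 2% at both ends, was 500.1 to 500.2, so a common scaling had been applied. Array medians ran from 205 to 268.1, so the arrays were quantile normalized. The floor was the 20th percentile of all values, 64.31, and log2 was taken above it. The tests excluded 57 control probe sets and took the 13535 probe sets above the floor on at least 3 of 9 arrays.

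One limma fit (limma 3.58.1, R 4.3.3, lmFit and eBayes) of the 3 groups gave all log2 changes. Adjusted p is Benjamini-Hochberg over the 13535 probe sets, and a probe set was called under 0.05. The moderated test had a median of 9.59 degrees of freedom. For 3 arrays against 3 the smallest two-sided p of an exact permutation test is 0.1, and no such test was run. The fit was tested on simulated data.

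Symbols came from the supplied platform annotation, updated through Entrez identifiers or accessions to GRCr8 RefSeq. In all, 12783 probe sets had 1 symbol, 312 several and 2771 none, and only those with 1 were named. A gene with several probe sets is represented by the one with the highest mean log2 signal. The genes studied, 4 pathway lists and 9 cell type marker lists were chosen with earlier results of these data known. Named are all probe sets of the genes studied, the called genes of each pathway list or otherwise its 4 smallest p in Burn-CLP against Sham-Sham, and the 4 genes most alike to each of the 3 genes with the smallest F test p. Alternatives were the deposited scaling, other floors and filters, an intensity trend, fits of 2 groups, a replicate block and leaving out each array. The labels do not say whether arrays of the same number belong together, and the main fit has no block.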

Additional observations from a re-analysis of the deposited data

How the results depend on the processing

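With 3 arrays a group, which genes pass depends on the setting. The count of probe sets called in Burn-CLP against Sham-Sham, 101, was 53 with the floor at the 10th percentile, 56 with 16 added and no floor, 317 with an intensity trend and robust spread, 13 with only the 2 groups compared, 59 with a replicate block, and 19 to 645 leaving out 1 array. The count among the 9 probe sets studied, 1, was 0 with the floor at the 10th percentile, with 16 added, with no filter or with only the 2 groups compared, 2 with the trend or the replicate block, and 0 to 2 leaving out 1 array. In Sham-CLP against Sham-Sham the 8 called were 4 with the deposited scaling or the replicate block, and 4 to 347 leaving out 1 array. In Burn-CLP against Sham-CLP the 2 called were 1 with the deposited scaling or 16 added, 4 with the floor at the 10th percentile or no filter, 10 with the trend, 0 with only the 2 groups compared, the replicate block or probe sets above the floor on all 9 arrays, and 0 to 36 leaving out 1 array. Deviations of same-numbered arrays from their group means had correlations from -0.0261 to 0.0806 over all tested probe sets. The labels state no pairing, and these values cannot exclude one. With the replicate block Serpina6 passed in Burn-CLP against Sham-Sham (adjusted p = 0.026), as it did with the trend (0.043) or with probe sets above the floor on all 9 arrays (0.0473), a filter that left out Hsd17b2 because 1 array was under the floor. Signals near the floor, as for Hsd17b2 in Burn-CLP and the second Nr3c1 probe set, give changes that depend on where the floor lies (-4.02 and 1.87 in Burn-CLP against Sham-Sham with the floor at the 10th percentile). The deposited scaling moved the median of all probe sets in Burn-CLP against Sham-CLP to 0.114, against 0.0194.

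Values near 0 changed sign: with the deposited scaling, Sham-CLP against Sham-Sham gave 0.12 for Hsd11b1, and Burn-CLP against Sham-Sham gave 0.021 for Pck1 and -0.053 for Nr3c2. Leaving out 1 array gave, in Burn-CLP against Sham-Sham, -0.12 to 0.35 for Nr3c1, -0.27 to 0.16 for Akr1d1 and -0.16 to 0.12 for Nr3c2. In Sham-CLP against Sham-Sham it gave -0.25 to 0.082 for Nr3c1, -0.13 to 0.087 for Hsd11b1 and -0.072 to 0.69 for Tsc22d3. In Burn-CLP against Sham-CLP it gave -0.014 to 0.44 for Nr3c1, -0.25 to 0.24 for Fkbp5, -0.32 to 0.0025 for Hsd11b1 and -0.083 to 0.31 for Tsc22d3. The cause was not tested. Serpina6 and Hsd17b2 stayed negative in every alternative and comparison, and Fkbp5 stayed positive against Sham-Sham.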
